A study of Arabidopsis thaliana with 33 samples.

Results

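Ga-0 (Gabelstein-0) and Col-0 (Columbia-0), natural accessions of Arabidopsis thaliana, were compared in low light (LL), with 3 arrays of each accession, 6 of the 33 arrays in the series. The labels place these arrays at 100 μmol m-2 s-1, harvested on day 25 when lights had been on for 1 hr, and the plants of both groups had received no treatment. Every locus of the table was kept. Both accessions were raised side by side in the same climate-controlled phenotyping system in short days at the same irradiance, and each array held RNA from 3 whole rosettes pooled. The same accessions moved to high light (HL) of 550 μmol m-2 s-1 and harvested at the same hour served as a separate set of 6 arrays, and Ts-1 (Tossa de Mar-1) in LL as another accession. Each accession stands for 1 inbred genotype, so the comparison describes these lines and not other plants from the same places. The RNA is that of whole rosettes, in which fewer cells of a type and less RNA per cell cannot be told apart.

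Accessions of Arabidopsis are inbred lines collected at different sites, and they are known to differ in flowering time, in the glucosinolates that deter herbivores and in the resistance genes that recognise pathogens. FRI and FLC set how strongly flowering is held back until after winter. Glucosinolates are made from amino acids that are first lengthened, then turned into the core structure by cytochrome P450s and last modified in the side chain. Resistance genes of the NLR class encode intracellular receptors, often in clusters of similar copies, and are among the most variable genes between accessions. A transcript difference in unstressed plants is the baseline against which a light response of each accession is read.

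The deposited table holds 27826 loci, and its values are the digits of the normalised intensities without their power of 10, so the level of a gene, and any difference beyond 3.16-fold, cannot be read. All differences are therefore given as the smallest that the digits allow. For a log2 difference up to 1 in size, the opposite reading would be a difference of 5-fold or more the other way, and for larger ones between Ga-0 and Col-0 in LL both readings are given. Larger values in HL or in Ts-1 are printed at the smallest reading. Values of single arrays are given relative to the mean of the 3 Col-0 LL arrays of the same gene, and levels of different genes were not compared. Probes on the array follow a reference transcript annotation, and an unequal match of the probes to Ga-0 RNA and a difference in transcript level cannot be told apart.

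In limma, 1795 loci (6.45% of all loci) differed between Ga-0 and Col-0 at an adjusted p below 0.05 and more than 1.4-fold. Higher in Ga-0 were 872 loci (3.13%) and lower were 923 (3.32%). In 1763 of the called loci all 3 Ga-0 arrays lay on the same side of all 3 Col-0 arrays, which was so for 27.5% of all loci. At the smallest reading, 951 called loci lay between 0.5 and 0.75 on the log2 scale and 399 between 0.75 and 1. The placing allows no size beyond 1.66, so these counts do not show how large the differences are. A size above 1 was found at 345 loci, and for these the direction is not settled. The median log2 difference over all loci was 0.03. Array deviations from the group mean (root mean square over loci, log2 scale) were 0.105 to 0.111 for Col-0 and 0.112 to 0.129 for Ga-0, where replicate 2 had the highest. Ga-0 replicate 2 stood apart in several gene groups, as given with them. Of the 22 marker genes for cell types and organs checked, 2 were called, SAG13, a senescence-associated gene (0.66, limma adjusted p = 0.014), and LHCB2.1 (-1.29; other reading 2.03). The other senescence marker, SAG12 (0.10), and the other mesophyll marker, RBCS1A (0.01), were not called. No marker of guard cells, trichomes, phloem, epidermis, root or shoot apex and inflorescence was called, and whether these markers were expressed could not be judged, since levels were lost.

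**Figure D1:**
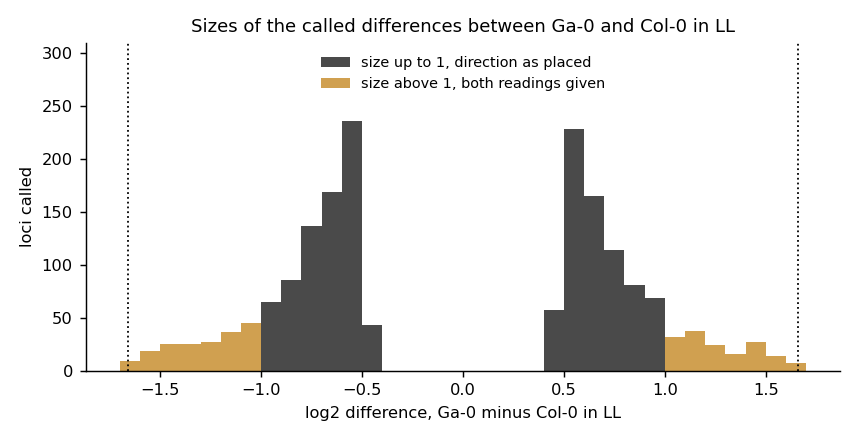
Number of called loci by log2 difference, Ga-0 minus Col-0 in LL, in bins of 0.1. Dark bars hold the 1450 loci with a size up to 1, ochre bars the 345 loci above 1, and dotted lines mark the limit of 1.66 beyond which no difference can be placed. The counts fall off from both 1.4-fold limits toward the dotted lines.

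The accession difference was also measured on the HL arrays, which share no array with the LL comparison and come from plants moved to HL. An unequal probe match to Ga-0 RNA would be present in both lights, so a shared call does not tell it apart from a transcript difference. On the HL arrays 1582 loci (5.69%) were called, 666 higher (2.39%) and 916 lower (3.29%) in Ga-0. Of the 1795 loci called in LL, 1104 (61.5%) were called in the same direction in HL, which is 69.8% of the HL calls. This held for 458 of the 872 loci higher in Ga-0 (52.5%) and for 646 of the 923 lower ones (70.0%). Among loci up to 1 in size it held for 333 of 714 higher ones (46.6%) and for 491 of 736 lower ones (66.7%), a difference that was not tested. Of the 1450 called loci with a size up to 1 in LL, 1412 (97.4%) had the same sign in HL, 824 were called the same way and 4 the other way. These 4 were SPX1 (0.98 in LL, -0.75 in HL), GRX480 (0.86 and -1.56), At1g66090 (-0.75 and 1.6) and At5g41740 (-0.70 and 1.62), the last 3 with an HL size above 1. Among the 345 loci above 1, 280 were called the same way and 36 the other way. Since a difference near the limit can be placed on either side of it, an opposite sign there need not be an opposite direction. When the change of the accession difference with light was itself tested, 36 loci (0.129%) passed, 14 of which were called in LL. Without Ga-0 LL replicate 2 that count was 122 and without Ga-0 HL replicate 2 it was 23.

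The 16 gene lists held 374 measured members, of which 76 (20.3%) were called, 44 placed as higher and 32 as lower in Ga-0, against the 6.45% of all loci. Up to 1 in size were 32 of the higher and 20 of the lower members, for which the opposite reading would be 5-fold or more. The counts for single lists include those above 1. The lists were assembled with earlier results of these data known, so this share is a description. The resistance genes had the largest share of the 16 lists with 46.7%, followed by flowering time (42.9%) and cold (38.5%), and the circadian clock list had the smallest with 0 of 21.

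**Figure D2:**
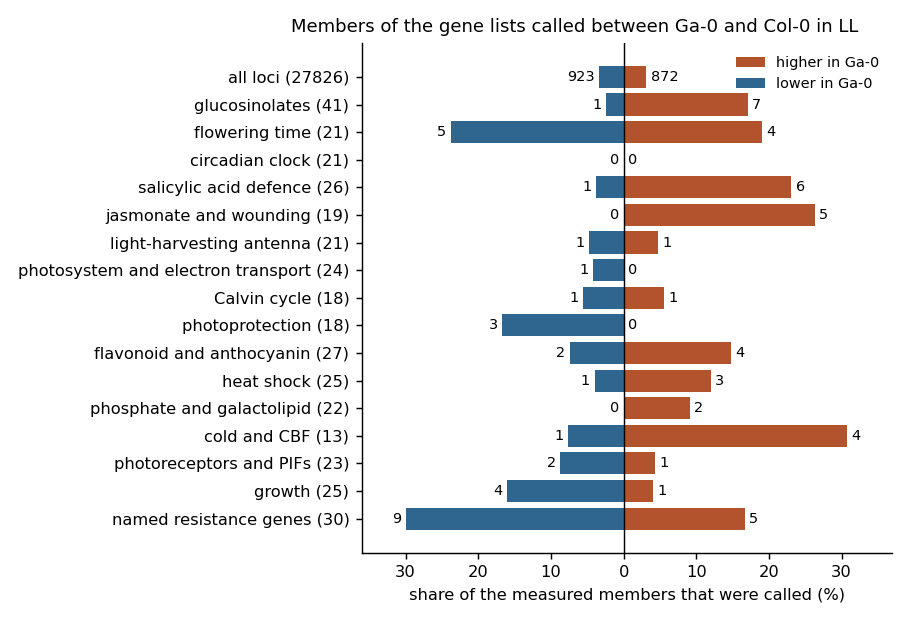
Share of the measured members of each gene list called in limma between Ga-0 and Col-0 in LL, with the bars to the right for members higher in Ga-0 and to the left for members lower. Numbers at the bars count the members and numbers in parentheses give the list size. Members above 1 in log2 size count at their smallest reading. Named resistance genes (5 and 9 of 30, 9 of these 14 above 1 in size) and flowering time genes (4 higher, 5 lower of 21) had the highest shares in all, and all loci together form the short pair at the top.

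Flowering time genes differed at both ends of the list. FRI (At4g00650), the scaffold protein that keeps FLC active, had values of 1.05, 0.973 and 0.978 on the Col-0 arrays and of 0.555, 0.543 and 0.611 on the Ga-0 arrays. The Ga-0 arrays lay clearly below, with a log2 difference of -0.81 (standard error 0.07, limma adjusted p = 6.3e-10), and in HL it was -1.06. MAF3 (At5g65060) and MAF5 (At5g65080), relatives of FLC that also repress flowering, were higher in Ga-0. MAF3 read 1.15, 0.846 and 1.03 in Col-0 and 2.13, 1.71 and 2.05 in Ga-0, and MAF5 1.1, 0.842 and 1.08 against 1.83, 1.7 and 1.51. In neither gene did the arrays overlap, and the log2 differences were 0.97 (standard error 0.12, limma adjusted p = 2.9e-07) and 0.75 (adjusted p = 1.6e-05). The HL arrays gave 0.98 and 0.68. Their relatives MAF2 (0.15) and MAF4 (0.03) were not called.

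FLC (At5g10140) itself, the central repressor, lay above the size of 1 beyond which both readings are given. On the Ga-0 arrays it was 0.378, 0.333 and 0.306 of the Col-0 mean, a log2 difference of -1.57 (standard error 0.13, limma adjusted p = 6.4e-11). The other reading was 1.75, which is 3.38-fold higher in Ga-0. In HL the smallest difference was 1.4 and the other reading -1.93. With the same direction in both lights, FLC was either higher in Ga-0, at 1.75 and 1.4, or lower, at -1.57 and -1.93.

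Downstream of the repressors, SOC1 (At2g45660), an integrator that promotes flowering, was lower in Ga-0, at 0.669, 0.707 and 0.679 against 1.07, 0.929 and 1.00 in Col-0. Its log2 difference was -0.55 (standard error 0.16, limma adjusted p = 0.013) in LL and -0.53 in HL. SPL4, another promoter of the floral transition, was lower by -0.63 (adjusted p = 5.1e-04). TEM1 and TEM2, repressors of the florigen gene FT, were higher by 0.79 and 0.51, and SMZ, a repressor of the same class, was lower by -0.49. FT (-0.02), its relative TSF (-0.02), CO (0.12) and SVP (0.14) were not called. In 11 of the 21 genes replicate 2 was the lowest Ga-0 array, and in 15 of the 21 replicate 1 was the highest Col-0 array, against 34.0% of all loci. Without Col-0 LL replicate 1, SOC1 (-0.50), SPL4 (-0.43) and TEM2 (0.46) were no longer called. TEM2 also fell below the limit without Col-0 LL replicate 2 (0.45), and SMZ without that array (-0.47) or without Ga-0 LL replicate 2 (-0.41). In Ts-1, which was set against the same Col-0 arrays, the log2 difference from Col-0 was 0.20 for FRI, 1.08 for MAF5 and -0.95 for MAF3.

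**Figure D3:**
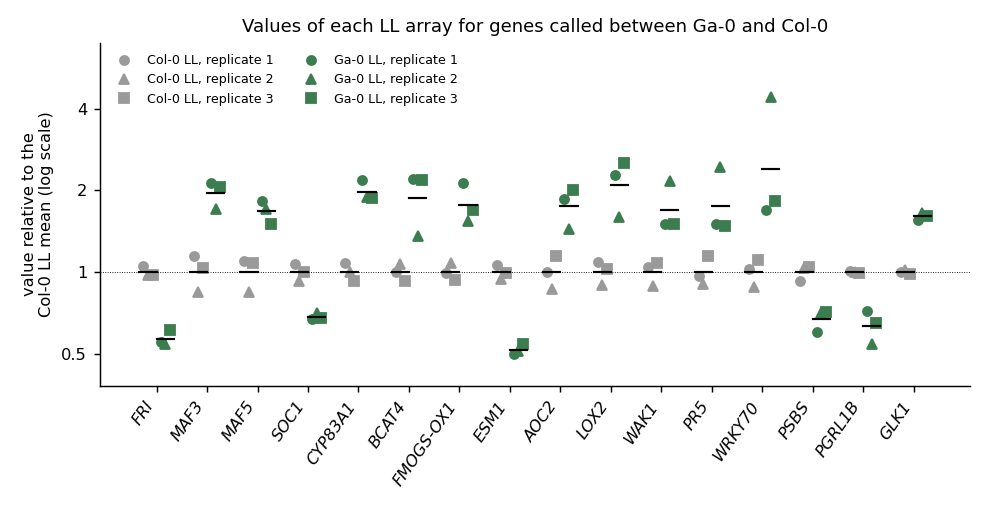
Values of the 3 Col-0 LL arrays (grey) and the 3 Ga-0 LL arrays (green) relative to the Col-0 LL mean of the same gene, on a log axis, with black lines at the geometric means and a symbol for each replicate number. For each of the 16 genes the arrays of the accessions lie apart, and for WRKY70 the Ga-0 arrays spread from 1.7 to 4.42. LOX2 and WRKY70 are drawn at the smallest difference, which is above 1 on the log2 scale.

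Of the 41 glucosinolate genes measured, 7 were higher and 1 was lower in Ga-0, and the median of the list was 0.16, against 0.03 over all loci. The 7 genes belong to the route from methionine to aliphatic glucosinolates. Other genes of this route were measured and not called, among them BCAT3, BAT5, SOT17, SOT18, FMOGS-OX2, FMOGS-OX4 and FMOGS-OX5. BCAT4 (At3g19710), the aminotransferase that starts the lengthening of methionine, read 1.00, 1.07 and 0.931 in Col-0 and 2.2, 1.36 and 2.18 in Ga-0, where replicate 2 was nearest to Col-0. Its log2 difference was 0.90 (standard error 0.20, limma adjusted p = 0.0011). IMD1 (At5g14200), the dehydrogenase of the same cycle, was higher by 0.62 (adjusted p = 3.9e-04).

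MAM3 (At5g23020), the synthase that makes the longest side chains, was at 2.3, 1.94 and 1.81 in Ga-0, against 0.983 to 1.02 in Col-0. Its log2 difference of 1.00 (standard error 0.11, limma adjusted p = 2.4e-08) lay just above 1, and the other reading was -2.32. The neighbouring synthase gene MAM1 (-0.42) was not called in LL, and it was called at -0.65 in HL. MAM1 and MAM3 are similar tandem copies whose probes may share signal.

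The core structure is made by cytochrome P450s of the CYP79 and CYP83 families. CYP83A1 (At4g13770) read 1.08, 1.00 and 0.925 in Col-0 and 2.19, 1.90 and 1.87 in Ga-0, a log2 difference of 0.99 (standard error 0.11, limma adjusted p = 2.6e-08). In HL it was 0.54, also called. CYP79F2 was higher by 0.53 (adjusted p = 0.0023), and CYP79F1 had 0.42 in LL, which missed the limit, and 0.51 in HL, which passed. These last genes are near-identical tandem copies, so their separate values are uncertain, and CYP79F2 was not called without Ga-0 LL replicate 1 or 2 (0.47 each) or Col-0 LL replicate 3 (0.43). The S-oxygenases FMOGS-OX1 and FMOGS-OX3, which modify the side chain, were both higher by 0.82 (adjusted p = 0.0036 and 0.0021).

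Genes of the indolic branch, which starts from tryptophan, did not pass, among them CYP79B2 (0.16), CYP79B3 (-0.06), CYP83B1 (0.27), CYP81F2 (-0.18) and the regulators MYB34 (-0.23) and MYB51 (0.07). Nor did the aliphatic regulators MYB28 (0.33), MYB29 (-0.01) and MYB76 (0.20). ESM1 (At3g14210), a protein that favours isothiocyanates over nitriles when glucosinolates break down, was the member lower in Ga-0. It read 1.06, 0.947 and 0.995 in Col-0 and 0.499, 0.510 and 0.542 in Ga-0, a log2 difference of -0.95 (standard error 0.12, limma adjusted p = 4.9e-07) in LL and -1.24 in HL. Of the 8 members called in LL, 3 were called the same way in HL, namely MAM3, CYP83A1 and ESM1. Ga-0 replicate 2 was the lowest of the 3 Ga-0 arrays in 20 of the 41 genes, which was so for 38.3% of all loci. Col-0 replicate 3 was the lowest Col-0 array in 24 of the 41, against 33.8% of all loci.

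Jasmonate and wounding genes had 5 members placed as higher and 0 as lower of 19, with a median of 0.25. Of the 5, 2 had a size up to 1, and the direction of the other 3 is not settled. LOX2 (At3g45140), the lipoxygenase at the start of jasmonate synthesis in the chloroplast, read 1.09, 0.899 and 1.02 in Col-0 and 2.28, 1.60 and 2.53 in Ga-0. The arrays lay apart, and the log2 difference was 1.07 (standard error 0.19, limma adjusted p = 8.3e-05), or -2.25 in the other reading. The allene oxide cyclases of the next steps, AOC1 and AOC2, were higher by 1.31 (other reading -2.01) and 0.81 (adjusted p = 0.0064), and as similar tandem copies their separate values are uncertain. JR2, a jasmonate-responsive aminotransferase-like gene, had 1.12 (other reading -2.2) and THI2.1, a thionin, 0.58 (adjusted p = 0.0040). THI2.1 was not called without Ga-0 LL replicate 3 (0.48). LOX2, AOC2 and JR2 were called the same way in HL. AOS (0.04), VSP1 (-0.16), VSP2 (0.26) and the 7 JAZ repressors measured, which ranged from -0.17 for JAZ9 to 0.58 for JAZ5, did not pass. In Ts-1 minus Col-0, on the same Col-0 arrays, LOX2 was 0.99 and JR2 1.07.

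Salicylic acid defence genes had 6 members higher and 1 lower of 26, and here the Ga-0 arrays disagreed. WRKY70 (At3g56400), a transcription factor of this pathway, read 1.03, 0.879 and 1.11 in Col-0 and 1.7, 4.42 and 1.82 in Ga-0. All Ga-0 arrays were above Col-0, and replicate 2 was far above the other 2. With all arrays the log2 difference was 1.26 (standard error 0.21, limma adjusted p = 4.1e-05; other reading -2.07), and without Ga-0 replicate 2 it was 0.81 (adjusted p = 2.9e-04). PR5 (At1g75040), a pathogenesis-related protein, was at 1.51, 2.43 and 1.48 in Ga-0 against 0.966, 0.903 and 1.15 in Col-0, a log2 difference of 0.81 (adjusted p = 2.6e-04) that was 0.58 without replicate 2. WAK1, a wall-associated kinase, was higher by 0.76 and by 0.59 without that array.

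Ga-0 replicate 2 was the highest Ga-0 array in 17 of the 26 genes of this list, against 32.4% of all loci, and Col-0 replicate 2 the lowest Col-0 array in 16, against 36.5%. WRKY54, GRX480 and NUDT6 were called with it, at 0.78, 0.86 and 0.54, and had 0.36, 0.48 and 0.27 without it, when they did not pass. GRX480 did not pass either without Col-0 LL replicate 1 (0.77) or 2 (0.88), and it was called at -1.56 in HL. The count of members higher was 3 without Ga-0 LL replicate 2 and 8 without Ga-0 LL replicate 1. PNP-A (At2g18660), a small secreted peptide, was lower in Ga-0 with 0.370, 0.601 and 0.361 against 0.996, 0.921 and 1.09, a log2 difference of -1.21 (limma adjusted p = 3.1e-07; other reading 2.11). ICS1 (0.14), the synthase of salicylic acid, EDS1 (-0.02), PAD4 (0.14) and NPR1 (-0.11) were not called, and PR1 had 0.80 without passing. In HL, WRKY70 (1.29), PR5 (1.01), WAK1 (0.92), WRKY54 (0.61), NUDT6 (1.09) and PNP-A (-1.09) were called the same way.

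Among 30 named resistance genes, 14 were called, 5 placed as higher and 9 as lower in Ga-0, and 11 of these 14 were called the same way in HL. Only 5 of the 14 had a size up to 1, 2 of them higher and 3 lower, and the direction of the other 9 is not settled. CHS3 (At5g17890, CHILLING SENSITIVE 3) and CSA1 (At5g17880), neighbouring NLR genes whose products work together, lay on opposite sides at the smallest reading. CHS3 read 1.03, 1.00 and 0.965 in Col-0 and 1.83, 2.15 and 2.03 in Ga-0, a log2 difference of 1.00 (standard error 0.07, limma adjusted p = 2.9e-12). CSA1 read 1.11, 1.02 and 0.879 in Col-0 and 0.428, 0.400 and 0.395 in Ga-0, a log2 difference of -1.29 (standard error 0.09, adjusted p = 6.6e-13), or 2.03 in the other reading. The HL arrays gave 1.07 and -1.26. In Ts-1 minus Col-0 the same genes had -0.27 and -0.06, neither called.

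RPM1 (At3g07040), the receptor for bacterial effectors that act on RIN4, was at 0.337, 0.340 and 0.403 of the Col-0 mean on the Ga-0 arrays. That is a log2 difference of -1.48 (standard error 0.10, limma adjusted p = 1.0e-12), or 1.84 in the other reading, with -1.41 in HL. RPP4 (At4g16860) and RPP5 (At4g16950), downy mildew receptors of one cluster, were at 2.94 to 3.2 and 2.49 to 3 in Ga-0, log2 differences of 1.61 (other reading -1.71) and 1.42 (other reading -1.90). SNC1, from the same cluster, had -0.56 (adjusted p = 4.5e-04). Similar copies within this cluster can share probes, so the values of its genes are uncertain. LAZ5 (1.29; other reading -2.03), an NLR gene known from cell death mutants, and HR3 (0.50) were the other members higher. HR3 was not called without Ga-0 LL replicate 2 (0.29) or Col-0 LL replicate 2 (0.48).

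Further members lower in Ga-0 were RPP1 (-1.25), RPP13 (-1.23), CHS1 (-1.27), HR4 (-1.47), TAO1 (-0.77) and RPP8 (-0.73), of which the first 4 have a second reading between 1.85 and 2.1. HR4 had 1.6 in HL, which in its other reading is also lower. The remaining 16 members were not called, with ADR1 (0.11), the helper NLR, RPS4 (0.10) and its partner RRS1 (-0.17) among them, and RPS2 (0.27) at a larger value.

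Cold-responsive genes had 4 members higher and 1 lower of 13. COR15A and COR15B, chloroplast proteins that protect membranes in the cold, were higher by 0.96 (limma adjusted p = 5.5e-04) and 0.86 (adjusted p = 1.4e-04). COR15A read 2.01, 1.82 and 2.03 in Ga-0 and 0.844 to 1.11 in Col-0, and COR15B read 1.84, 1.92 and 1.69 against 0.893 to 1.07. CBF2 (At4g25470), a factor upstream of them, was at 1.68, 1.57 and 1.69 in Ga-0, with a log2 difference of 0.72 (adjusted p = 9.3e-04), whereas CBF1 (0.03) and CBF3 (0.07) did not pass. The CBF genes are similar tandem copies. ZAT12, a stress-responsive zinc finger gene, had 1.23 (other reading -2.09), and COR6.6 was lower with -0.65. With the Col-0 LL arrays of day 24 as the Col-0 group, CBF2 was -0.44 and ZAT12 -0.12 and neither passed. The lowest Ga-0 array was replicate 2 in 8 of the 13 genes. Of the 5 members called in LL, 1 was called the same way in HL, COR15B.

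Of the photosynthesis genes, 1 of 24 in the photosystem and electron transport list (4.17%) was called. In the antenna list it was 2 of 21 (9.52%) and in the Calvin cycle list 2 of 18 (11.1%), against 6.45% of all loci. Each of these shares rests on 1 or 2 genes. The median of the photosystem list was 0.02. PSBO2 (At3g50820), an extrinsic subunit of the oxygen-evolving complex, was lower in Ga-0, at 0.599, 0.843 and 0.578 against 0.963, 1.02 and 1.02 in Col-0, a log2 difference of -0.59 (standard error 0.12, limma adjusted p = 3.1e-04) in LL and -0.61 in HL. Its paralogue PSBO1 had -0.11. Ga-0 replicate 2 was the highest Ga-0 array in 21 of these 24 genes, in 16 of the 21 antenna genes, in 14 of the 18 Calvin cycle genes and in 13 of the 18 photoprotection genes, against 32.4% of all loci. The part of this array in these lists was not tested. In the antenna list 19 of 21 genes were not called, and LHCB2.2 (1.62; other reading -1.71) and LHCB2.1 (-1.29; other reading 2.03) are near-identical copies of the LHCII gene LHCB2 that the array may not separate. In the Calvin cycle list RBCS2B, a small subunit gene of Rubisco, had -1.13 (other reading 2.19), TIM, a triose phosphate isomerase, had 0.50, and RBCS1A had 0.01. RBCS genes share long stretches of sequence, and TIM was not called without Ga-0 LL replicate 1 (0.48) or Col-0 LL replicate 3 (0.35).

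Photoprotection genes had 3 members lower and 0 higher of 18, with a median of -0.06, and Col-0 replicate 1 was the highest Col-0 array in 13 of the 18. PSBS (At1g44575), the sensor of thylakoid lumen pH that switches on heat dissipation, read 0.931, 1.03 and 1.04 in Col-0 and 0.600, 0.709 and 0.710 in Ga-0. The arrays did not overlap and the log2 difference was -0.58 (standard error 0.08, limma adjusted p = 3.0e-06), with -0.54 in HL. PGRL1B (At4g11960), which takes part in cyclic electron flow, read 1.01, 0.998 and 0.996 in Col-0 and 0.717, 0.544 and 0.649 in Ga-0, a log2 difference of -0.66 (standard error 0.09, adjusted p = 2.9e-06), with -0.64 in HL. Its paralogue PGRL1A had -0.05. ELIP2, a light-stress protein, had -0.53 (adjusted p = 0.014) and was not called without Ga-0 replicate 1 or 3 or Col-0 replicate 2 (-0.45 to -0.35). ELIP1 (0.44), NPQ1 (-0.29), ZEP (0.17) and STN7 (0.15) were not called. In Ts-1 minus Col-0, on the same Col-0 arrays, PSBS was -0.31 and PGRL1B -0.43, neither called.

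Among photoreceptors and their signalling genes, GLK1 (At2g20570), an activator of chloroplast genes, was higher with 1.56, 1.66 and 1.60 in Ga-0 and 1.00, 1.02 and 0.980 in Col-0. The log2 difference was 0.68 (standard error 0.08, limma adjusted p = 1.9e-07) and 0.57 in HL. PHYD, a phytochrome, and HY5, a factor that promotes light responses, were lower by -0.57 (adjusted p = 6.6e-06) and -0.54 (adjusted p = 1.1e-04). PHYD was not called without Ga-0 LL replicate 3 (-0.47) and HY5 not without Col-0 LL replicate 3 (-0.48). In HL, 1 of the members called in LL was called the same way. PHYA (-0.14), PHYB (0.17), CRY1 (-0.06), CRY2 (-0.24) and GLK2 (0.18) did not pass.

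No gene of the circadian clock list was called, 0 of 21, and the median was -0.02. At an unadjusted p below 0.05, 5 of the 21 (23.8%) passed, against 28.2% of all loci, and 0 were called in any of the 13 alternative settings used for the lists. CCA1 (-0.08) and LHY (-0.23), which peak at dawn, TOC1 (-0.01) and GI (-0.04), which peak later, and PRR9 (-0.04) and PRR7 (0.12), which repress the dawn genes, all had adjusted p-values or sizes short of the limit. LUX (-0.29) and CHE (0.36) were at the ends of the range.

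Flavonoid and anthocyanin genes had 4 members higher and 2 lower of 27. MYBL2 (At1g71030), a repressor of anthocyanin synthesis, was at 2.44, 3.75 and 2.97 in Ga-0, a log2 difference of 1.59 (standard error 0.14, limma adjusted p = 5.1e-10; other reading -1.73). PAP1 (At1g56650), the MYB activator of the same pathway, was at 0.454, 0.156 and 0.521 in Ga-0, a log2 difference of -1.59 (standard error 0.34, adjusted p = 7.9e-04; other reading 1.74), and its arrays spread widely. Without Ga-0 LL replicate 1 it was not called (-0.15), without replicate 2 it was -1.04, and without Ga-0 LL replicate 3 or Col-0 LL replicate 1 it was placed at 1.41 or 1.62. LDOX and TT19, late genes of anthocyanin synthesis and transport, had 1.26 (other reading -2.06) and 0.95. LDOX ranged from 1.19 to 4.08 in Ga-0 and from 0.740 to 1.54 in Col-0, so the arrays overlapped, and neither LDOX nor TT19 was called in HL (-0.10 and 0.34). TT19 was not called without Ga-0 LL replicate 3 (0.72) or Col-0 LL replicate 3 (0.77), and LDOX not without Ga-0 LL replicate 1 (-0.52) or 3 (0.88) or Col-0 LL replicate 1 (1.17) or 3 (1.04). Without Ga-0 LL replicate 2 it was placed at -1.56.

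The flavonol regulators MYB11 and MYB111 lay on opposite sides. MYB11 read 1.94, 1.42 and 1.78 in Ga-0 with a log2 difference of 0.77 (limma adjusted p = 1.1e-05), and MYB111 read 0.483, 0.590 and 0.513 with -0.92 (adjusted p = 6.3e-07). Both sets of arrays lay apart from Col-0, and MYB12, a further flavonol regulator, had 0.13. CHS (0.11), CHI (0.28), F3H (0.40) and FLS1 (-0.03), enzymes of the early pathway, were not called. Among the 27 genes replicate 2 was the lowest Ga-0 array in 17.

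Phosphate and galactolipid genes had 2 members higher and 0 lower of 22 (9.09% called, against 6.45% of all loci). SPX1 (At5g20150), an intracellular phosphate sensor, read 0.888, 1.04 and 1.08 in Col-0 and 2.08, 1.84 and 2.02 in Ga-0, a log2 difference of 0.98 (standard error 0.17, limma adjusted p = 5.9e-05). PHO2, which limits phosphate uptake, was higher by 0.61 (adjusted p = 3.5e-04). In HL, SPX1 was called at -0.75 and PHO2 had -0.05. In LL 18 of the 22 members lay above 0, against 16452 of all 27826 loci. The list median was 0.14, against 0.03 over all loci. In HL 5 members were called, all of them below 0 at the smallest reading. The difference between the lights was past the limit for 7 of the 22 members, against 0.129% of all loci. The lowest Ga-0 array was replicate 2 in 15 of the 22.

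Heat shock genes had 3 members higher and 1 lower of 25, and 0 of these 4 were called in HL. HSFB1, a heat shock factor, was higher by 0.58 (limma adjusted p = 8.2e-06), HSP70 by 0.53 and HSP18.2 by 0.50. HSP17.6II was lower by -0.66 (adjusted p = 0.0042) with 0.561, 0.929 and 0.483 in Ga-0 and 0.797 to 1.14 in Col-0, so its arrays overlapped. In 17 of the 25 genes replicate 2 was the highest Ga-0 array. With the Col-0 LL arrays of day 24 or of day 26 as the Col-0 group, HSFB1 (0.29 and 0.42) and HSP18.2 (0.41 and 0.42) were not called. Without 1 library, HSP17.6II (-0.47 without Ga-0 LL replicate 3), HSP70 (0.46 and 0.43 without Col-0 LL replicate 1 or 2) and HSP18.2 (0.42 and 0.37 without Ga-0 LL replicate 2 or Col-0 LL replicate 3) were not called either. HSP101 (0.19), HSFA2 (-0.14) and HSP90.1 (-0.14) did not pass.

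Growth genes had 1 member higher and 4 lower of 25. EXPA1 (At1g69530), an expansin that loosens walls, was at 0.580, 0.702 and 0.632 in Ga-0, a log2 difference of -0.65 (standard error 0.09, limma adjusted p = 1.2e-06). XTH9, an enzyme that cuts and rejoins xyloglucan, was lower by -0.90 (adjusted p = 2.8e-06) and by -0.96 in HL. SAUR20 (-0.94) and SAUR24 (-1.09; other reading 2.23) belong to a cluster of near-identical auxin-induced genes and are uncertain. EXPA4 was higher by 0.52 and had 0.41 without Col-0 LL replicate 1. In HL, 1 of the growth genes called in LL was called the same way.

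**Figure D4:**
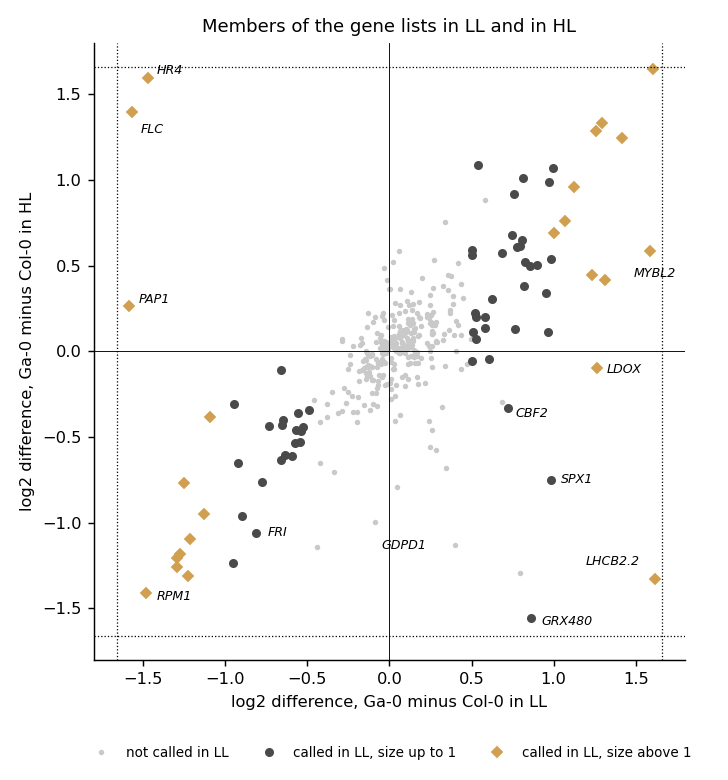
Log2 difference between Ga-0 and Col-0 in LL (horizontal) and in HL (vertical) for the members of the gene lists, with dotted lines at the limit of 1.66. Dark points, called in LL with a size up to 1, mostly lie at the lower left and upper right, with CBF2, SPX1 and GRX480 standing out at the lower right, and FLC, HR4 and LHCB2.2, whose other reading moves them across, lie at opposite corners.

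Over all loci with a symbol, separated arrays and a size up to 1, CHS3 had the smallest limma adjusted p among those higher in Ga-0. Next came SGS3 (At5g23570), which is needed to make trans-acting small RNAs, with 2.03, 2.05 and 1.84 against 0.974, 1.04 and 0.986 in Col-0, a log2 difference of 0.98 (standard error 0.07, adjusted p = 5.4e-12). It was 1.05 in HL and 1.08 in Ts-1 minus Col-0. Then followed EMB3127 (0.95), EMB3108 (0.91), the cyclic nucleotide-gated channel CNGC18 (0.99), the purine permease PUP11 (0.88), the polyol transporter PMT5 (0.85), the fucosyltransferase FUT13 (0.88), EP1 (0.92) and FBH2 (0.71), an activator of the flowering gene CO. All 10 were called the same way in HL.

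Lower in Ga-0 was first E1 ALPHA (At1g59900), a subunit of mitochondrial pyruvate dehydrogenase, with 0.491, 0.502 and 0.539 against 1.1, 0.954 and 0.952 in Col-0. Its log2 difference was -0.97 (standard error 0.07, limma adjusted p = 1.2e-11) in LL, -1.01 in HL and -1.19 in Ts-1 minus Col-0. PDIL1-5, a protein disulfide isomerase (-0.95), EHD1, an endocytosis protein (-0.78), TLP2 of the tubby family (-0.93), ARAD2, a glycosyltransferase of the arabinan family (-0.99), 2A6 (-0.99), CYB-1, a cytochrome b561 (-0.83), SPL2 (-0.98), BXL2, a beta-xylosidase (-0.98), and FRI (-0.81) made up the 10. All of these too were called lower in HL.

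Of the loci above 1, mtACP2, a mitochondrial acyl carrier protein (1.43; other reading -1.89), RPP4 and LSU2, a gene that responds to low sulphur (1.42; other reading -1.90), had the smallest adjusted p among those placed as higher. Among those placed as lower were ETP1, an F-box protein that acts on EIN2 (-1.64; other reading 1.68), CXIP4 (-1.63; other reading 1.69) and VPS54, a subunit of a vesicle tethering complex (-1.22; other reading 2.1). On the Ga-0 arrays mtACP2 read 2.62, 2.89 and 2.6, and ETP1 0.319, 0.316 and 0.325, a spread much smaller than their distance from Col-0. ETP1 and CXIP4 lay so near the limit that their placing changed sign between settings, and CXIP4 had 1.65 in HL.

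Gene families were taken by symbol. Called were 9 of 46 cysteine-rich receptor-like kinases (6 higher, 3 lower), 12 of 56 receptor-like proteins and LRR kinases (4 higher, 8 lower) and 6 of 54 UDP-glycosyltransferases (2 higher, 4 lower). Shares near the 6.45% of all loci were found for cytochrome P450s (16 of 232), glutathione S-transferases (3 of 45), pentatricopeptide repeat proteins (8 of 115), MADS-box genes (8 of 98), defensins and thionins (7 of 135) and ribosomal proteins (3 of 52), and F-box genes had 1 of 31. In these families 11 of the 12 called receptor-like proteins and kinases and 7 of the 9 called cysteine-rich kinases were called the same way in HL. It was 6 of 8 for MADS-box genes, 5 of 8 for pentatricopeptide repeat proteins and 6 of 16 for P450s. Over all called loci it was 1104 of 1795 (61.5%).

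By genome, 11 of 92 mitochondrial loci were called (8 higher, 3 lower) and 0 of 14 plastid loci. The share called on the 5 nuclear chromosomes ranged from 5.73% on chromosome 3 to 7.23% on chromosome 4. Of the 1795 called loci, 332 (18.5%) stood next to a locus called in the same direction, and 21 runs of 3 or more neighbours held 66 loci. The share expected from the overall call rate was not computed, so these counts are a description.

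The longest run was on chromosome 4, where the 5 neighbours At4g19060, At4g19070, At4g19080, At4g19090 and At4g19095, which have no symbol in the annotation used, were all lower in Ga-0. At4g19060 read 0.432, 0.446 and 0.560 in Ga-0 against 0.960, 1.02 and 1.02 in Col-0, a log2 difference of -1.07 (standard error 0.09, limma adjusted p = 1.8e-10; other reading 2.25). At4g19080 read 0.466, 0.415 and 0.513, with -1.11 (adjusted p = 3.6e-11; other reading 2.21). The other 3 had -0.59, -0.71 and -0.71, and At4g19070 was not called without Ga-0 LL replicate 3 (-0.47). PAM68 (-0.09), the next locus, was not called, and the 3 after it, At4g19110, At4g19112 and ERD3, were lower again by -0.71, -0.72 and -0.58. All 8 were called lower in HL, at -1.28 to -0.54. In Ts-1 minus Col-0, on the same Col-0 arrays, the first 5 had -1.25, -0.43, -0.997, -0.57 and -0.64. Next in length was a run of 4 on chromosome 2, with WOL, a cytokinin receptor (-0.68), EXGT-A3, a xyloglucan endotransglucosylase (-0.96), EMB975 (-0.69) and At2g01870 (-1.06, with a second reading above 0), of which EMB975 and At2g01870 were called lower in HL. Whether neighbouring loci share probes was not tested.

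**Figure D5:**
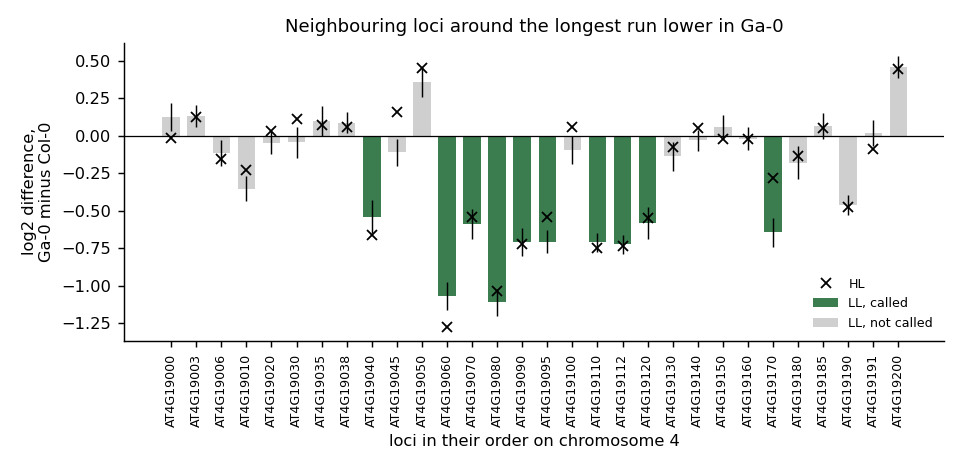
Log2 difference between Ga-0 and Col-0 for the loci from At4g19000 to At4g19200 in their order on chromosome 4. Bars are LL with the standard error of the fit, green where called, and crosses are HL. The 5 neighbours of the longest run lie between -1.11 and -0.59, PAM68 follows near 0, and the next 3 loci are again below -0.5.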

How the data were processed

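Per the labels, rosette RNA of 11 groups of 3 replicates was hybridised to Affymetrix AraGene arrays. The authors extracted the probe values, summarised them by locus with a custom TAIR annotation and normalised them by RMA, and limma is also named in the submitters' processing notes. The genome build is not given in the sources used here. The values that the authors deposited are of a unit that could not be named otherwise than as other: digits of linear intensity values, up to 10 per value, of which 825847 of 918258 hold 10 digits and 1 keeps a decimal point. Nothing in the sources used here says why the separators are missing, and the number of digits carries no scale.

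The digits were read as mantissas. Within a group, each locus took the powers of 10 under which its 3 arrays lie nearest to each other. Between groups, it took those with the smallest difference, at most 1.66 on the log2 scale. One power of 10 is 3.32 on that scale, which separates both readings of a difference. The spread within groups does not depend on how groups are placed. The difference between the lights was wrapped in the same way. Single-array values are linear, with the geometric mean of the Col-0 LL arrays set to 1.

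A linear model with 1 mean per group was applied to the log2 values of all 33 arrays (limma 3.58.1 under R 4.3.3, moderated by eBayes; 22 residual and 8.37 prior degrees of freedom, median residual SD 0.11). P-values were adjusted by Benjamini-Hochberg over all 27826 loci, and a call needed an adjusted p below 0.05 together with a difference of more than 1.4-fold. The plan had assumed log2 values, so the placing was added after the values were seen. Precision is limited by how many arrays there are, and 3 pools of rosettes from 1 growth experiment stand for each accession. Placing and fit were also run on simulated digits with known changes. That run cannot settle the direction of a real difference beyond 3.16-fold, since the placing always takes the smallest reading. Symbols are those of the TAIR10.1 annotation, in which 27241 loci were found. The 16 lists and the marker genes were written out by symbol and locus, and of 382 entries 374 were used (7 had no symbol in the annotation and 1 was not on the table). Members and lists were chosen with earlier results of these data known. Named genes are up to 4 called members of each list with the smallest adjusted p, the 10 loci higher and the 10 lower with a symbol, separated arrays and a size up to 1, the 3 of each sign above 1, and the longest run of neighbours. Other list members are named to show the rest of a pathway. Tables were made in Python 3.11.15 with pandas 2.3.3 and numpy 2.4.6. As alternatives, only the 6 arrays compared were fitted, replicate numbers were added as a block, arrays were centred on their median or placed singly, eBayes was made robust, treat or Holm's method replaced the call, the limit was raised to 2-fold, loci were left out, the Col-0 LL arrays of day 24 or 26 replaced those of day 25, and each replicate was dropped in turn.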

Additional observations from a re-analysis of the deposited data

Results flagged for a closer look

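For 9 members of the gene lists the difference between Ga-0 and Col-0 changed with light by a limma interaction test, in which 0.129% of all loci passed. Of these, 7 are phosphate and galactolipid genes. The difference in HL minus that in LL was -1.53 for GDPD1 (limma adjusted p = 5.1e-04), -1.025 for SQD2 (adjusted p = 5.1e-04), -0.91 for MGD2 (adjusted p = 0.0044), -0.715 for SQD1 (adjusted p = 0.0023), -0.65 for MGD3 (adjusted p = 0.0096) and -0.65 for SPX2 (adjusted p = 0.0041). GDPD1, a phospholipid-degrading enzyme, had 0.40 in LL and -1.13 in HL, and SQD2, the last enzyme of sulpholipid synthesis, 0.34 and -0.68. MGD2 and MGD3, galactolipid synthases, had -0.09 and 0.32 in LL and -0.996 and -0.33 in HL, SQD1, also of sulpholipid synthesis, 0.26 and -0.46, and the sensor SPX2 0.24 and -0.41. None of these 6 was called in LL. The changes are given at the smallest reading, and those of GDPD1 and SQD2, above 1 in size, also have a reading in the opposite direction. The same holds for the HL difference of GDPD1.

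SPX1 was called in LL (0.98) and in the other direction in HL (-0.75), and the change with light was 1.59 as placed (limma adjusted p = 0.0010). Subtracting both printed differences gives the other reading of that change, -1.73, and both readings of its direction remain.

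MYBL2 had 1.59 in LL and 0.58 in HL, a change of -1.005 (limma adjusted p = 0.027), and CBF2 had 0.72 in LL and -0.33 in HL, a change of -1.05 (adjusted p = 0.034). The LL difference of MYBL2 has the other reading of -1.73. The changes of MYBL2 and CBF2, above 1 in size, also have a reading in the opposite direction.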

How the results depend on the processing

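Counts of called loci kept within 1.5 times of 1795 in LL and 1582 in HL with only the compared arrays (1811 and 1537), with median centring (1778 and 1626; 769 higher and 1009 lower in LL, 560 and 1066 in HL), with a robust fit (1771 and 1545) and with singly placed arrays (1586 and 1396). With a replicate block they were 1797 in LL, 1577 in HL and 36 for the change with light, and the block changed the call of none of the 78 named genes. Same-numbered arrays of Ga-0 and Col-0 correlated at 0.028, 0.041 and 0.023 in their deviations, and differently numbered ones at -0.063 to 0.035. Ga-0 replicate 1 correlated best with Col-0 replicate 3 (0.035), and Ga-0 replicates 2 and 3 with the array of their own number. All these values are small, and the main fit assumed no pairing. With treat, 485 loci passed in LL (197 higher, 288 lower), 453 in HL (172, 281) and 1 for the change with light. With Holm's method it was 1053 in LL (421 higher, 632 lower), 982 in HL (377, 605) and 13. With a 2-fold limit, which was added after the data were seen for HL and the single genes, it was 345 in LL (158, 187), 320 in HL (138, 182) and 10. Of the 76 called list members, 25 passed with treat, 38 with Holm's method and 24 at 2-fold, and the count ranged from 71 to 76 with 1 array left out. Leaving out 1 array gave 1717 to 2004 loci in LL, 1542 to 1673 in HL and 23 to 122 for the change with light, the ends of the last without Ga-0 HL replicate 2 and without Ga-0 LL replicate 2. With the Col-0 LL arrays of day 26 or day 24, 1783 and 2038 loci were called, 1400 and 1472 of them called the same way as with those of day 25. Without organelle and unannotated loci 1779 were called, and without loci above 1 in size 1449. Over 16 settings the 78 named genes gave 1083 values that kept direction and call, 150 that lost the call and 15 that changed sign, and 67 genes had at least 1 such change.

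Several genes changed sign. ETP1 was 1.651 with centring and 1.646 and 1.558 with the Col-0 arrays of day 26 and day 24, and ranged from -1.655 to 1.649 with 1 array left out. CXIP4 was 0.586 with singly placed arrays and 1.602 with day 24, and ranged from -1.634 to 1.66. LHCB2.2 was -1.643 with day 26 and ranged from -1.551 to 1.636, and MYBL2 ranged from -1.582 to 1.627. PAP1 was 1.486 with day 26 and ranged from -1.554 to 1.623. ZAT12 was -0.12 with day 24 (limma adjusted p = 0.73; 2.9e-05 with day 25). CBF2 was -0.44 with day 24, HR4 1.39 with day 26, LDOX -0.52 and -1.56 without Ga-0 LL replicate 1 and 2, and PAP1 -0.15 and not called without Ga-0 LL replicate 1. The cause was not tested. With day 26, WAK1 (0.37), NUDT6 (0.37), JR2 (0.63), SOC1 (-0.35), PSBO2 (-0.47), SNC1 (-0.46), TEM2 and SMZ also missed the call. So did ELIP2 (-0.33), TIM (0.42) and LDOX (1.06). With day 24, CYP79F2 (0.41), TIM (0.415), TEM2 (0.33) and SMZ (-0.43) missed it. An intensity trend, another quantile normalization and a limit on dim loci need the lost levels and were not run. Signal over background could not be assessed.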
